A study of Homo sapiens with 6 samples.

Results

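NR3C1, which encodes the glucocorticoid receptor, and 6 genes that glucocorticoids are known to induce, FKBP5, TSC22D3, SGK1, ERRFI1, ZBTB16 and DUSP1, were followed through RNA sequencing of A549 cells. These 7 genes were chosen by symbol from the 19470 symbols of the count table, and all 7 were found there. They and the lists of related genes below were chosen with earlier results of these data known. A549 is an established human lung adenocarcinoma line that is widely used to study glucocorticoid responses. All libraries carried the label of wild-type genotype. The dormant group held 3 libraries of cells in which dormancy had been induced, tagged SF in their titles. The activated group held 3 libraries of cells exposed to medium conditioned by osteoclasts, the cells that resorb bone, tagged OC. The labels do not say how dormancy was induced, how long either condition lasted or whether either medium held a glucocorticoid, and a difference of medium cannot be told apart from a difference of state. A single cell line was studied. Since no label ties replicates to cultures grown apart, the error behind each p-value is the library-to-library spread and may be technical in origin.

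Cortisol and its synthetic relatives cross the cell membrane and bind the glucocorticoid receptor, which waits in the cytosol in a complex with HSP90 and its cochaperones. The bound receptor moves to the nucleus, where it raises transcription near glucocorticoid response elements and lowers transcription of many inflammatory genes, partly by interfering with NF-kB and AP-1. Several of the induced genes feed back on signalling. FKBP5 lowers the receptor's affinity for hormone, TSC22D3 encodes the leucine zipper protein GILZ, DUSP1 encodes a phosphatase that switches off MAP kinases, and ERRFI1 encodes the EGFR inhibitor MIG6.

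In activated cells the receptor transcript and 4 response genes were lower, 1 response gene was higher, and 1 was not detected in any library. TSC22D3 fell 4.12-fold, DUSP1 2.03-fold, NR3C1 1.73-fold and ERRFI1 1.48-fold, and SGK1 fell by 0.32 on the log2 scale. FKBP5 rose 2.19-fold. In edgeR's quasi-likelihood test with Benjamini-Hochberg adjustment, 5 of the 6 tested genes were thus lower and 1 was higher. The comparison as a whole was broad, since 73.7% of all 13336 tested genes passed, 37.2% as lower and 36.5% as higher, so that passing alone does not set these genes apart. The groups did not overlap for any of the 6, as was the case for 76.5% of tested genes (38.7% with activated libraries lower and 37.7% with them higher). All 6 had at least 309 counts in every library, so none entered the test through 1 group only. Bulk libraries cannot tell fewer cells with a transcript from less of it per cell.

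**Figure D1:**
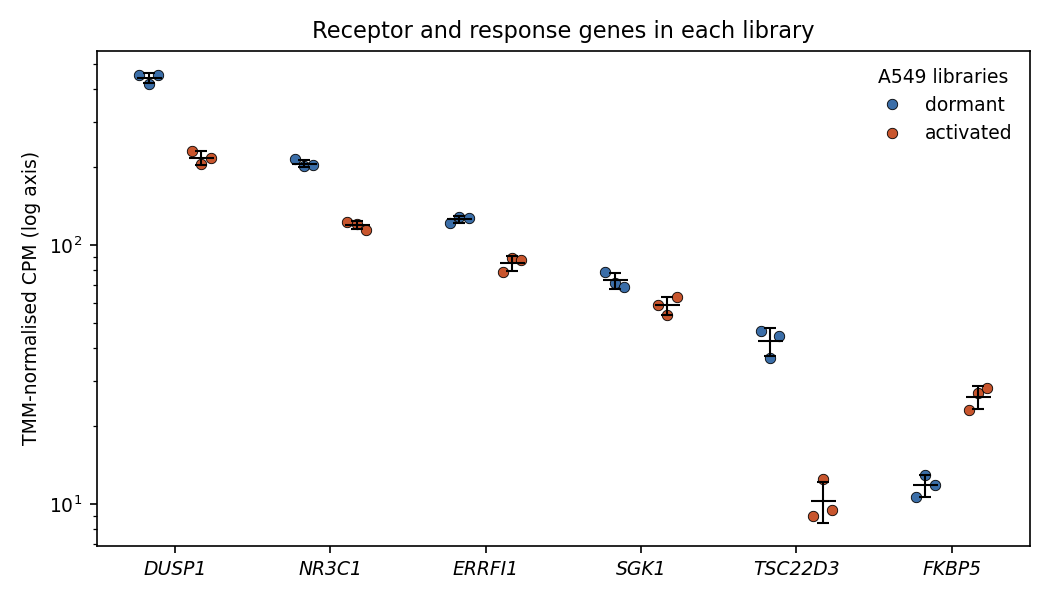
Counts scaled to library size with TMM factors (CPM, log axis) of the 6 detected genes in each dormant (blue) and activated (orange) A549 library, with bars for the mean and SD of 3 libraries. Activated points lie below all dormant points for every gene except FKBP5, where they lie above.

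Library totals lay between 34128471 and 36667725 counts, and levels below are counts scaled to library size with TMM factors (CPM). Across genes, libraries of a group correlated at a Pearson r of 0.989 to 0.992 on log2 CPM, and libraries of different groups at 0.911 to 0.915. Of 10 epithelial and A549 markers, summed levels were 9516 to 9884 CPM in dormant and 17186 to 18932 CPM in activated libraries, with 5 markers higher and 3 lower, and EPCAM at or under 1.28 CPM on average in both groups. The 17 osteoclast and myeloid markers summed to 45.6 to 47.6 CPM in dormant and 27.8 to 29.8 CPM in activated libraries, and 7 of them, TYROBP and DCSTAMP included, had no count in any library. Of the 9 tested, 6 passed the filter through 1 group only, so their calls are not counted. The lower sum came mainly from ATP6V0D2, a proton pump subunit (19.3 ± 1.72 to 0.0707 ± 0.0982 CPM), and NFATC1, a transcription factor (16.4 ± 0.238 to 9.04 ± 0.753 CPM). Other markers were higher in activated libraries. CD14, a monocyte receptor, went from 1.10 ± 0.396 to 9.25 ± 0.478 CPM and LAPTM5, a lysosomal protein of blood cells, from 0.224 ± 0.0385 to 2.10 ± 0.228 CPM. CSF1R, the receptor for macrophage colony-stimulating factor, went from 0.0877 ± 0.0812 to 0.774 ± 0.117 CPM and the protease gene MMP9 from 0.143 ± 0.0213 to 0.770 ± 0.200 CPM. The 9 osteoblast and stromal markers summed to 19.7 to 23.6 CPM in dormant and 19.2 to 20.9 CPM in activated libraries. Of the 5 tested, 2 passed the filter through the activated group only, so the calls of those 2 are not counted. In that list LUM, DCN, PDGFRA and COL1A1 had higher means in activated libraries and RUNX2 a lower one. Their part in the results was not tested.

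NR3C1 (gene ID 2908, chromosome 5, 143277931 to 143435512, minus strand, GRCh38.p14) was read at 215, 203 and 203 CPM in dormant libraries 1 to 3 and at 123, 121 and 115 CPM in activated libraries 1 to 3. The lowest dormant library stood well above the highest activated one, and the libraries of each group lay close together. The mean went from 207 ± 6.65 (SD, n = 3) to 120 ± 4.31 CPM, a log2 fold change of -0.79 ± 0.05 (SE, edgeR adjusted p = 2.22e-09). The receptor transcript was therefore less abundant but still well detected, with 3772 to 4221 counts per activated library.

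FKBP5 (gene ID 2289, chromosome 6, 35573590 to 35728583, minus strand) had dormant values of 10.7, 12.9 and 11.9 CPM and activated values of 23.1, 26.8 and 28.0 CPM. It was the lone gene among the 6 whose activated libraries all lay above the dormant ones. Its log2 fold change was 1.13 ± 0.10 SE (edgeR adjusted p = 1.10e-07), from means of 11.8 ± 1.13 to 26.0 ± 2.58 CPM. The encoded protein, FKBP51, is an HSP90 cochaperone with peptidyl-prolyl isomerase activity, and its gene is a common readout of glucocorticoid exposure.

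TSC22D3 (gene ID 1831, chromosome X, 107713221 to 107775988, minus strand) moved the other way. It was read at 46.5, 36.7 and 44.8 CPM in dormant libraries and at 9.03, 12.5 and 9.48 CPM in activated libraries. Dormant library 2 was the lowest of its group and activated library 2 the highest of its own, and the groups were still far apart. The log2 fold change of -2.04 ± 0.12 SE (edgeR adjusted p = 9.02e-10) placed this gene at the 3.13th percentile of all tested genes, ordered from the largest fall to the largest rise. GILZ, its product, binds and restrains NF-kB and AP-1. Of the exon bases annotated to TSC22D3 in GENCODE v29, 71 (1.49%) are shared with NCBP2L on the opposite strand.

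DUSP1 (gene ID 1843, chromosome 5, 172768096 to 172771195, minus strand) was the most abundant of the 7 transcripts. Dormant libraries had 453, 419 and 454 CPM and activated libraries 232, 206 and 217 CPM. No activated library reached the dormant range. With means of 442 ± 19.9 and 218 ± 13.0 CPM, the log2 fold change was -1.02 ± 0.06 SE (edgeR adjusted p = 3.74e-10). DUSP1 dephosphorylates p38, JNK and ERK and is also an immediate early gene that serum and stress induce within minutes, so it is not a readout of glucocorticoids alone.

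ERRFI1 (gene ID 54206, chromosome 1, 8011727 to 8026309, minus strand) was read at 122, 128 and 128 CPM in dormant libraries and at 78.6, 89.6 and 87.6 CPM in activated libraries. Every activated library was below every dormant one, and the log2 fold change was -0.56 ± 0.06 SE (edgeR adjusted p = 4.77e-07). Of its annotated exon bases, 155 (3.70%) lie in an antisense transcript, AL034417.4. SGK1 (gene ID 6446, chromosome 6, 134169256 to 134318112, minus strand), a kinase that keeps sodium channels at the membrane, showed the smallest change. Its dormant values were 78.8, 71.7 and 68.9 CPM and its activated values 59.0, 53.8 and 63.0 CPM. The gap between the lowest dormant and the highest activated library was narrow beside the spread within groups, and the log2 fold change was -0.32 ± 0.07 SE (edgeR adjusted p = 0.000711). In absolute size this change ranked at the 34.0th percentile of tested genes.

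ZBTB16 (gene ID 7704, chromosome 11, 114059711 to 114256770, plus strand), which encodes the zinc finger repressor PLZF and is strongly induced by glucocorticoids in many tissues, had 0 counts in all 6 libraries. A count of 0 over the 3 dormant or the 3 activated libraries allows a level of up to 0.0281 CPM, a limit of 3 counts that covers counting error only. No direction can be given for it, and it was not tested.

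Ratios between genes of the same library do not depend on how libraries are scaled. FKBP5 counts were 0.230, 0.353 and 0.265 times those of TSC22D3 in dormant libraries and 2.55, 2.15 and 2.95 times in activated libraries. The ratio was higher in every activated library than in any dormant one, by 9.11-fold between geometric means. Folds of the other ratios are also between geometric means, while the printed means of ratios are arithmetic. Counts are not scaled by gene length, so these ratios compare the groups and do not say which of the 2 transcripts was more abundant. Against its receptor, FKBP5 went from 0.0573 ± 0.00706 to 0.218 ± 0.0286 counts per NR3C1 count (SD, n = 3), 3.79-fold. DUSP1 stayed closer to the receptor, with 2.14 ± 0.0847 counts per NR3C1 count in dormant and 1.82 ± 0.103 in activated libraries. Against FKBP4, the related HSP90 cochaperone FKBP52, FKBP5 stood at 0.0871 ± 0.00915 in dormant and 0.0911 ± 0.00841 in activated libraries, and these ranges overlapped. Across the 6 ratios computed, the 2-sided exact permutation p was 0.7 for FKBP5 over FKBP4 and 0.1 for each of the others (0.12 after Benjamini-Hochberg adjustment). With 3 libraries against 3, 0.1 is the smallest p this test can give.

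**Figure D2:**
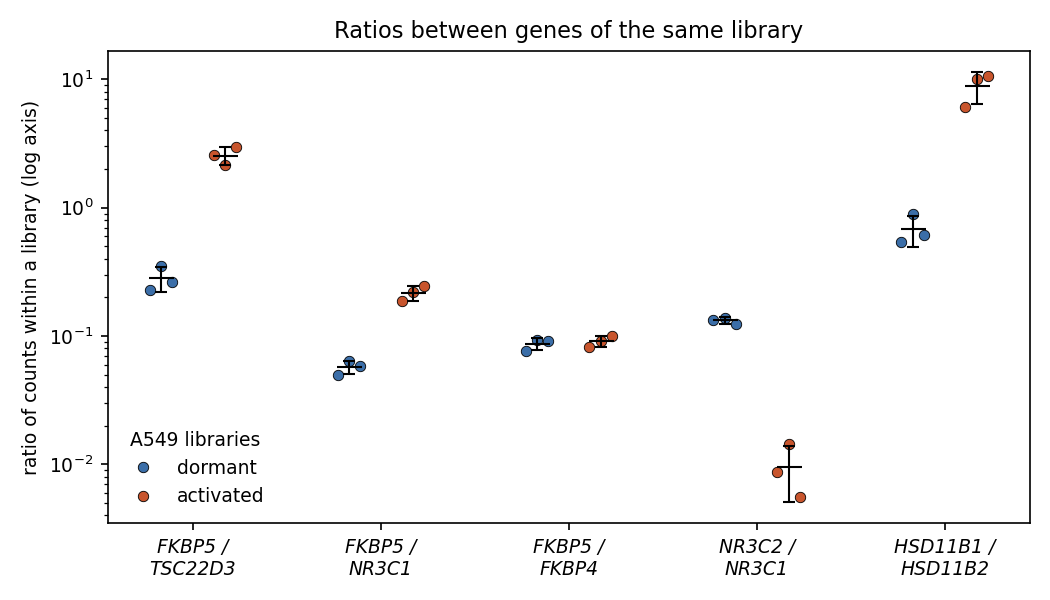
Ratio of the counts of 2 genes within each library (log axis), dormant in blue and activated in orange, with bars for the mean and SD of 3 libraries. FKBP5 over TSC22D3 lies below 0.36 in every dormant and above 2.1 in every activated library, while FKBP5 over FKBP4 overlaps between groups.

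Levels of different genes were compared as FPKM, which divides by gene length. In dormant cells the order was DUSP1 (230 ± 8.43 FPKM, SD, n = 3), SGK1 (20.4 ± 1.31), ERRFI1 (19.4 ± 0.745), TSC22D3 (13.0 ± 1.49), NR3C1 (10.9 ± 0.269), FKBP5 (1.17 ± 0.123) and ZBTB16, listed at 0. SGK1 and ERRFI1 overlapped between libraries, and the other neighbours did not. In activated cells the order was DUSP1 (103 ± 6.09 FPKM), SGK1 (14.9 ± 1.16), ERRFI1 (11.9 ± 0.821), NR3C1 (5.70 ± 0.207), TSC22D3 (2.86 ± 0.521), FKBP5 (2.33 ± 0.232) and ZBTB16. There TSC22D3 had come down into the range of FKBP5, and these were the neighbours that overlapped. DUSP1 stood at the 99.0th percentile of all symbols by FPKM in dormant and at the 97.0th in activated cells. The length behind the deposited value of NR3C1 was 19995 bases, against 9172 bases of exons in GENCODE v29 and a median of 3672 bases for its 8 coding transcripts in the basic set, so its place in this order depends on the length used. The places of other members did too. With median transcript lengths the dormant order was DUSP1 (230 FPKM), ERRFI1 (85.4), NR3C1 (59.1), SGK1 (31.8), TSC22D3 (23.3) and FKBP5 (3.20), so that SGK1 moved below ERRFI1 and NR3C1. In activated cells it was DUSP1 (103 FPKM), ERRFI1 (52.5), NR3C1 (31.0), SGK1 (23.1), FKBP5 (6.37) and TSC22D3 (5.13). FKBP5 and TSC22D3 changed places there, and their ranges overlapped with either length.

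To show the sequence next to the start sites of the gene that rose, the gene that fell most and the most abundant gene, 250 bases upstream of 1 RefSeq start each (GRCh38.p14, minus strand) are given 5′ to 3′. They are FKBP5 at chr6:35688916-35689165, TSC22D3 at chrX:107717063-107717312 and DUSP1 at chr5:172771196-172771445. Counts per gene do not show which start was used, and TSC22D3 has 4 such windows and FKBP5 has 2, of which the printed ones were picked after motif matches were seen. Capitals mark the cAMP response element TGACGTCA and its core TGACG, which on the other strand reads CGTCA.
FKBP5: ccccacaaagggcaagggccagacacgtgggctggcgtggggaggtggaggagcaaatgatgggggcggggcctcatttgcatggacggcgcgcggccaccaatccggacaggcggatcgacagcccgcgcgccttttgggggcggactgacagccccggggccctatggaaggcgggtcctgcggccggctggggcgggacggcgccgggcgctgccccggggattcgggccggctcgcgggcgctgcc
TSC22D3: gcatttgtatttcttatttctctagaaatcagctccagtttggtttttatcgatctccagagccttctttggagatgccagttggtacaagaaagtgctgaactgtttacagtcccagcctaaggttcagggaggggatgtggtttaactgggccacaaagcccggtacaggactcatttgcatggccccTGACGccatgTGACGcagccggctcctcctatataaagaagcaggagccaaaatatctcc
DUSP1: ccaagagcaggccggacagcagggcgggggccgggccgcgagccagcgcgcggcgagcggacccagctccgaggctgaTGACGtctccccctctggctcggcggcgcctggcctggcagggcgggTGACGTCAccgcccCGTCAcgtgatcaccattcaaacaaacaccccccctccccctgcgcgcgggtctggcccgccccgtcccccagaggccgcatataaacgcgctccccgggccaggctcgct
The FKBP5 window held no match. DUSP1 had a TGACGTCA whose first base lay 125 bases before the start, inside which the core reads on both strands, and further cores at 172 and 111 bases. TSC22D3 had a core at 60 and another at 50 bases before the start.

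The motifs were searched on both strands of 35116 RefSeq windows of this size, from 27305 genes. The windows for the 7 genes numbered 18, from 6 genes, and ZBTB16 had none. The palindromic glucocorticoid response element, searched with its first arm whole and the second without its last base, was in 0 of the 18 and in 0.0114% of all windows. Its first arm alone, AGAACA, was also in 0 of the 18, against 12.4% of all windows. TGACGTCA was in 1 of the 18, that of DUSP1, against 1.65% of all windows, and the overlapping core TGACG was in 5 of the 18, from DUSP1, TSC22D3 and NR3C1, against 21.2%. These are matches of letters in short windows and say nothing of binding.

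Transcripts of chaperones and cochaperones were mostly higher in activated cells. Only some of those listed belong to the complex that holds the receptor in its hormone-binding form. Proteins and the complex itself were not measured. Of 19 listed chaperones and cochaperones, FKBP5 among them, all were tested, 17 rose, 1 fell and 1 did not pass. Of all tested genes, 36.5% passed as higher and 37.2% as lower. The list was chosen with earlier results of these data known, so it is not an unbiased sample of chaperone genes. The median log2 fold change of the list was 0.67 against -0.02 for all tested genes. HSP90AA1, the inducible HSP90, rose from 611 ± 19.0 to 1685 ± 12.4 CPM, and HSP90AB1, the constitutive one, from 1032 ± 17.8 to 1755 ± 29.5 CPM. HSPA8, the HSC70 chaperone that starts receptor folding, rose 3.33-fold. PTGES3, the p23 cochaperone that closes the complex, rose 1.43-fold. FKBP4, which competes with FKBP5 for HSP90 and promotes receptor transport, rose from 136 ± 5.94 to 285 ± 7.38 CPM (log2 fold change 1.07 ± 0.05 SE, edgeR adjusted p = 7.90e-11), close in size to FKBP5. TTC4 fell by 0.30 on the log2 scale. The HSP90, HSC70 and p23 genes have processed copies in the genome, and HSPA1A and HSPA1B are near-identical, so reads may have been split or lost.

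Transcripts of coregulators, the proteins the bound receptor recruits to chromatin, moved in both directions. Of 20 tested, 10 rose and 10 fell (8 and 10 with total counts), with a median log2 fold change of -0.09. Of all tested genes, 36.5% rose and 37.2% fell. CREBBP, a histone acetyltransferase, fell from 198 ± 4.20 to 99.0 ± 9.81 CPM, and CALCOCO1, a coactivator, fell 1.80-fold. EHMT2, a histone methyltransferase, rose 1.93-fold and NRIP1, a corepressor, 1.74-fold.

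Among the other steroid receptors the mineralocorticoid receptor NR3C2, the closest relative of NR3C1 and also a receptor for cortisol, fell most. It had 1073, 1099 and 902 counts in dormant libraries and 37, 60 and 21 in activated libraries. No activated library came near the dormant ones. The mean went from 27.4 ± 1.88 to 1.15 ± 0.548 CPM, a log2 fold change of -4.56 ± 0.20 SE (edgeR adjusted p = 2.98e-11), or 23.6-fold, and the fold lay at 31.5 without activated replicate 2. Within libraries NR3C2 went from 0.132 ± 0.00777 to 0.00956 ± 0.00444 counts per NR3C1 count. Between geometric means, it fell 14.9-fold relative to the glucocorticoid receptor. The orphan receptor ESRRA fell from 73.4 ± 5.14 to 49.5 ± 2.12 CPM. Of 9 listed receptors, NR3C1 included, 5 were tested, 4 fell (37.2% of all tested genes did) and 0 rose (36.5%) in edgeR's test. All 5 had log2 fold changes below 0, so none rose at an unadjusted p either. DESeq2, which tested more genes, called 1 higher, a receptor under the filter used here, so that call is not counted. ESR2, which passed the filter through the dormant group only, did not pass the test (log2 fold change -1.15, edgeR adjusted p = 0.123). Without activated replicate 2 it was called lower (log2 fold change -2.27, edgeR adjusted p = 0.0131). That call should not be counted, since ESR2 entered through the dormant group and its groups overlapped. PGR, ESR1 and ESRRG had at most 4 counts in any library. ESRRB, with 0 dormant counts and 7, 24 and 11 activated counts, was under the filter. It was the only receptor there whose activated libraries all lay above the dormant ones.

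Cells set the local level of active hormone with HSD11B1, which makes cortisol from inactive cortisone, and HSD11B2, which does the reverse. HSD11B1 had 0.721, 1.26 and 1.03 CPM in dormant and 7.07, 5.82 and 7.71 CPM in activated libraries. It rose 6.80-fold (log2 fold change 2.77 ± 0.24 SE, edgeR adjusted p = 5.91e-08) from 27 to 49 counts per dormant library. HSD11B2 had 50, 55 and 60 dormant and 40, 20 and 24 activated counts, and its log2 fold change of -0.83 ± 0.36 SE passed narrowly (edgeR adjusted p = 0.0468), a call lost in 8 of 17 alternatives with adjusted p up to 0.166. These included leaving out any library other than activated replicate 1. Their ratio within libraries went from 0.683 ± 0.184 to 8.90 ± 2.48, 12.9-fold between geometric means. H6PD, which supplies the NADPH that HSD11B1 uses, had 106 ± 2.33 and 99.1 ± 11.2 CPM and did not pass (edgeR adjusted p = 0.228). It passed as lower with total counts (edgeR adjusted p = 0.00723), with filtered log2 FPKM in limma and without activated replicate 2, with a log2 fold change of -0.17 in that last case. Of 11 listed genes of hormone supply and clearance, NR3C2 included, 8 were tested, 1 rose, 4 fell and 3 did not pass. Of all tested genes, 36.5% rose and 37.2% fell.

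**Figure D3:**
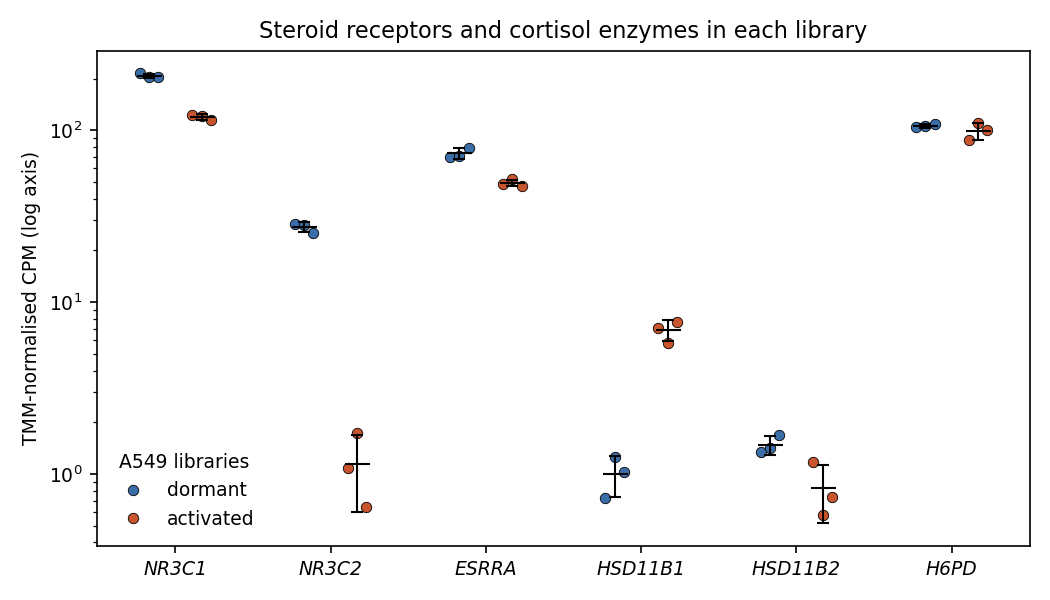
TMM-normalised CPM (log axis) of steroid receptors and of the enzymes that convert cortisone and cortisol in each dormant (blue) and activated (orange) library, with bars for the mean and SD of 3 libraries. NR3C2 drops from above 25 to below 1.8 CPM and HSD11B1 climbs from below 1.3 to above 5.8 CPM.

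A wider list of genes that glucocorticoids are known to induce showed no common direction. Of 55 in the table, 47 were tested, 20 rose, 24 fell and 3 did not pass (15 rose and 24 fell with total counts). Of all tested genes, 36.5% rose and 37.2% fell. The median log2 fold change of the list was -0.37. CDKN1C and RASD1 passed the filter through the dormant group only. CDKN1C is among the 24 falls, although its call should not be counted, and RASD1 is among the 3 that did not pass. PER1, a clock repressor with a well known response element, fell from 23.1 ± 2.35 to 13.2 ± 1.32 CPM, and KLF9, a transcription factor that dampens growth, from 28.7 ± 3.58 to 15.3 ± 1.37 CPM. TFCP2L1, a transcription factor, fell 2.60-fold, IRS2, an insulin receptor substrate, 4.38-fold, and FOXO3 4.07-fold.

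Other induced genes were higher. ANGPTL4, a lipase inhibitor that hypoxia also induces, rose from 7.84 ± 2.21 to 199 ± 21.2 CPM (log2 fold change 4.66 ± 0.14 SE, edgeR adjusted p = 4.84e-13). The gene of carboxypeptidase M, whose symbol is CPM, rose 5.41-fold, and BIRC3, an inhibitor of apoptosis that NF-kB also induces, 2.49-fold. MT2A, a metallothionein that metals also induce and that has close relatives, rose 1.52-fold. CEBPD rose 1.23-fold, a call that ended with unfiltered log2(FPKM + 1) in limma (adjusted p = 0.0942). NFKBIA, the inhibitor of NF-kB, rose 1.17-fold, but did not pass with total counts, at 0.08 on the log2 scale (edgeR adjusted p = 0.184), or with log2 FPKM in limma (adjusted p of 0.168 to 0.215).

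Genes that glucocorticoids are known to repress, mostly cytokines and chemokines, also split. Of 26 listed, 21 were tested, 10 rose, 5 fell and 6 did not pass, with a median log2 fold change of 0.73. Of all tested genes, 36.5% rose and 37.2% fell. MMP1 and VCAM1 passed the filter through the activated group only and FGFBP1 through the dormant group only. All of these are among the 6 that did not pass the test. The chemokine genes CCL2 and CXCL5 rose, CXCL5 to 2128 ± 317 CPM, while PTGS2, the prostaglandin synthase COX-2, fell by 2.23 on the log2 scale and the chemokine gene CXCL8 by 1.74.

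**Figure D4:**
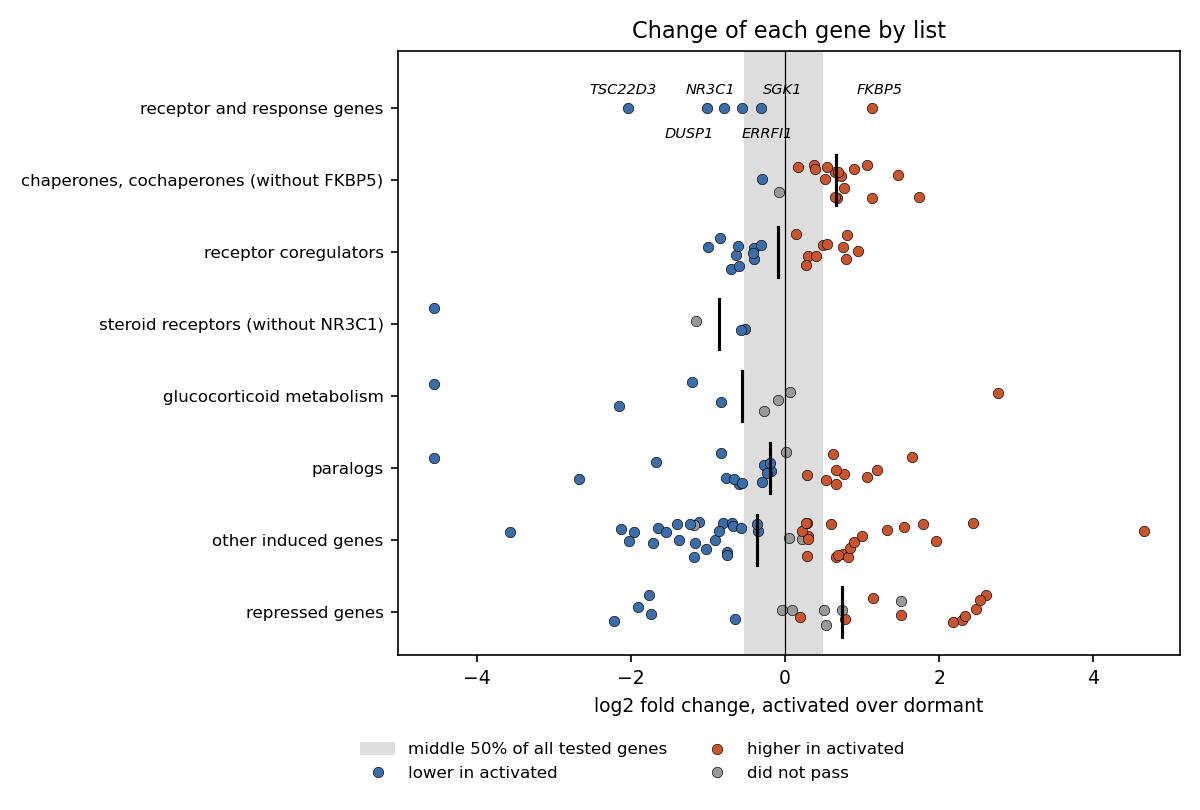
Log2 fold change (activated over dormant) of each tested gene by list, coloured by whether it passed edgeR's test as higher, lower or not. Black lines mark list medians, drawn without FKBP5 and NR3C1 where the label says so, and the grey band marks the middle 50% of all tested genes. The chaperone list lies mostly to the right of 0, and the induced genes spread to both sides.

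Paralogs of the 7 genes gave 9 rises and 13 falls among 23 tested of 25, against 36.5% higher and 37.2% lower of all tested genes. NR3C2, FKBP4 and BCL6 among them were already counted in lists above. In the TSC22D family, TSC22D1 fell from 215 ± 9.36 to 126 ± 3.75 CPM and TSC22D2 from 42.9 ± 3.21 to 28.3 ± 3.38 CPM. TSC22D4 had a log2 fold change of -0.18 (edgeR adjusted p = 0.0330), a call lost in 6 of 17 alternatives with adjusted p up to 0.175 (the highest without activated replicate 2). SGK2, a kinase related to SGK1, rose 3.12-fold at a low level, from 0.821 ± 0.157 to 2.58 ± 1.14 CPM, and 2.35-fold without activated replicate 3. SGK3 was under the filter. Among phosphatases related to DUSP1, DUSP10, which acts on p38 and JNK, fell from 40.8 ± 2.17 to 6.36 ± 1.32 CPM. FKBPL, which like FKBP5 binds HSP90, rose 2.28-fold.

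Genes with the most similar pattern were taken as those with the smallest root mean square distance of centred log2 CPM over the 6 libraries, among 10965 tested genes whose log2 CPM averaged 2 or more. With 2 groups this mostly picks genes with a change of equal size. They were TK2 and FBXO6 for NR3C1 (distances of 0.0220 and 0.0265), SGSM2 and BTD for FKBP5 (0.0531 and 0.0625), and ATXN1 and RASEF for TSC22D3 (0.102 and 0.132). For DUSP1 they were FAM83G and RAD17, for ERRFI1 DMXL2 and CHST2, and for SGK1 EIF2D and U2AF1L4, all at 0.0351 or less. TSC22D3 thus had the least close neighbours of the 6.

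Direction and call of the 6 tested genes held in each of 17 alternatives. The log2 fold change of FKBP5 lay between 0.62 and 1.21, that of TSC22D3 between -2.20 and -1.86, that of DUSP1 between -1.16 and -0.98, and that of NR3C1 between -0.93 and -0.76. For ERRFI1 it lay between -0.70 and -0.50. SGK1 came nearest to the threshold, at -0.26 and an edgeR adjusted p of 0.00681 without dormant replicate 1, and its range reached -0.46 with total counts.

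**Figure D5:**
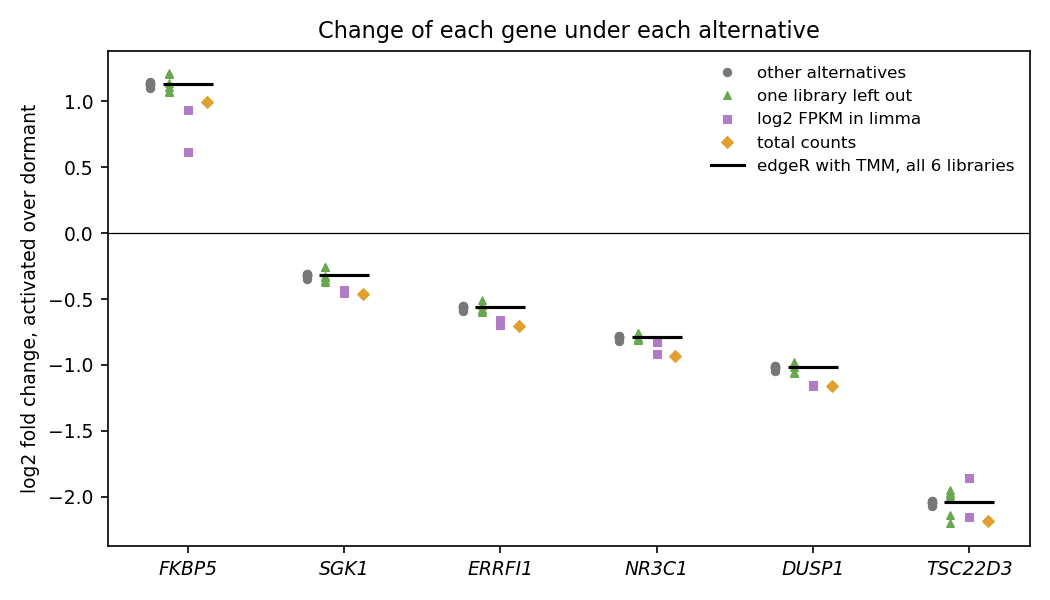
Log2 fold change (activated over dormant) of each tested gene under edgeR with TMM factors and all libraries (black bar) and under 17 alternatives (points). All values for FKBP5 lie above 0 and all values for the other 5 genes lie below 0.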

How the data were processed

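RNA of 3 dormant and 3 activated A549 samples was sequenced. Tools listed in the submitters' processing notes are fastp, HISAT2 and HTSeq, with the GRCh38 build. The sources used here give no versions, annotation or strand setting. The table of counts deposited by the authors gives whole reads per gene symbol, not normalised. The FPKM table deposited by the authors scales reads by gene length and library size. Counts of all genes were tested with edgeR 4.0.16 (R 4.3.3, quasi-likelihood, TMM factors, edgeR's default filter by group), with Benjamini-Hochberg adjustment and a threshold of 0.05. The SE was derived from the log2 fold change and F. No replicates looked like a library deposited again (lowest chi-square over df between replicates, 4.82). The code was tested on simulated data.

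The members and lists were chosen with earlier results of these data known. Named genes were the 7, a set list of receptors, paralogs, chaperones, enzymes and induced genes, and from each other list the 2 largest rises and falls that passed, did not overlap between groups and averaged 2 or more in log2 CPM. One gene that this rule names is not reported here. CYP3A5, ABCB1, SRD5A1, AKR1C1, NEDD4L, MET, EGFR, EPCAM, the osteoclast, myeloid and stromal markers and genes that passed the filter through 1 group were named after their values were seen. Alternatives were other scalings and filters, DESeq2 1.42.0, limma 3.58.1 (voom, or log2 FPKM with a pseudocount of 1 or 0.1, unfiltered or with a mean of at least 0.5), a replicate block and leaving out each library. Positions and upstream sequences are from RefSeq, and transcript lengths and overlaps from GENCODE v29.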

Additional observations from a re-analysis of the deposited data

How the results depend on the processing

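With the median length of coding transcripts in place of the deposited length, an alternative added after seeing the data, NR3C1 ranked 3 among the 7 genes by level in both groups, where it had ranked 5 in dormant and 4 in activated cells. SGK1 then stood below ERRFI1 in both groups (31.8 against 85.4 FPKM in dormant and 23.1 against 52.5 in activated cells) and TSC22D3 below FKBP5 in activated cells (5.13 against 6.37). Chaperones called lower numbered 2 instead of 1 with total counts and with log2(FPKM + 1), filtered or not, and filtered log2(FPKM + 0.1). Steroid receptors called higher numbered 1 instead of 0 with DESeq2, with no filter and with unfiltered log2(FPKM + 1), and 0 to 1 when 1 library was left out. ESRRB, with 0 dormant counts, was the only receptor under the main filter whose activated libraries all lay above the dormant ones. Such calls are not counted. Total counts shifted the median over all genes by -0.14 (log2), and 3941 genes were then higher and 5998 lower, against 4868 and 4962. A pseudocount of 1 understates the change of low genes, and with it FKBP5 had its lowest value, 0.62. A fit with replicate number as block called 4847 genes higher and 4942 lower, and all 6 tested members kept their calls in it. Same-numbered libraries had deviations correlated at -0.0152, 0.0190 and -0.0057, so numbers were not treated as pairs. Few counts limit HSD11B2, SGK2 and ESR2, HSD11B1 in dormant cells, and NR3C2, CYP3A5 and ABCB1 in activated cells.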

Other observations

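Genes that work with the products of SGK1, ERRFI1 and DUSP1 were also followed. Of 22 listed, 19 were tested, 5 rose, 9 fell and 5 did not pass, with a median log2 fold change of -0.15. Of all tested genes, 36.5% rose and 37.2% fell. FOXO3 and SCNN1A are also in the list of other induced genes. NEDD4L, the ubiquitin ligase that SGK1 phosphorylates to spare sodium channels, fell from 94.5 ± 2.90 to 36.0 ± 2.67 CPM (SD, n = 3), and RICTOR, a subunit of the mTORC2 complex that activates SGK1, from 129 ± 6.39 to 40.7 ± 1.47 CPM. Both falls were larger than that of SGK1 itself, although the difference between the genes was not tested. Of the receptor kinases that MIG6 inhibits, EGFR fell by 0.27 on the log2 scale and ERBB2 rose 1.55-fold, from 89.8 ± 5.88 to 139 ± 8.95 CPM. MET, a receptor kinase that induces ERRFI1, fell 1.59-fold. MAPK3, which encodes ERK1, a target of DUSP1, rose 1.71-fold.

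Beyond the conversion of cortisone, CYP3A5, an enzyme that clears cortisol, fell from 3.51 ± 0.683 to 0.788 ± 0.0960 CPM, and ABCB1, a pump that exports glucocorticoids, from 2.29 ± 0.295 to 0.992 ± 0.281 CPM (edgeR adjusted p = 5.19e-06 and 0.00265). They had 24 to 29 and 28 to 45 counts per activated library. SRD5A1, in the same list and more abundant, had 29.2 ± 1.06 and 30.5 ± 2.37 CPM and did not pass (edgeR adjusted p = 0.456). AKR1C1 had 469 ± 55.8 and 386 ± 105 CPM and did not pass either (edgeR adjusted p = 0.0823).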
